A study of Mus musculus with 21 samples.

Results

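The effect of a Pdcd10 deletion aimed at brain endothelium on the RNA of the brain was examined at 21% oxygen, across all expressed genes. The comparison set 4 knockout libraries (KO normoxia 1 to 4) against 4 control libraries (Flox normoxia 1 to 4), which are 8 of the 19 libraries with counts used here and of the 21 samples that the labels list. All genes that passed a filter on low counts were members, 19854 of the 55416 gene IDs in the count table. The knockout mice were Slco1c1-iCreERT2;Pdcd10 fl/fl;Aldh1l1-EGFP/Rpl10a, and the controls were Pdcd10 fl/fl;Aldh1l1-EGFP/Rpl10a. Both groups thus carried the floxed alleles and the Aldh1l1-EGFP/Rpl10a transgene, which tags ribosomes in astrocytes. The Cre recombinase was inducible by tamoxifen and driven by Slco1c1, a promoter of brain endothelium. Slco1c1 itself is a transporter of thyroid hormone that astrocytes also express. The knockouts received 50 micrograms of 4-hydroxytamoxifen on postnatal day 1, and the brains were taken at postnatal day 57. No dose is given for the controls, so the genotype and the injection cannot be told apart. The design text adds that Cre-carrying animals without an injection served as controls too, and does not say which. It describes pull-down of tagged ribosomes, whereas the sample records describe RNA from homogenised brain tissue. Hypoxic mice of the same genotypes, kept at 12% oxygen for 7 days, were 7 knockout and 4 control libraries and are used below as a second comparison that shares no library with the first.

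Pdcd10, also called CCM3, is an adaptor protein whose loss in endothelial cells causes cerebral cavernous malformations, clusters of dilated and leaky brain capillaries. Astrocytes wrap brain vessels with their endfeet, take up glutamate and potassium, store glycogen and supply neurons with lactate and cholesterol. When tissue nearby is injured they become reactive, and raise intermediate filaments and many secreted proteins. In such bulk RNA, fewer cells of a type and less RNA per cell cannot be told apart.

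The normoxic libraries held 49967274 to 65237032 counts each. Levels are given as CPM, read counts scaled to a common library total, with TMM normalisation and without correction for gene length, so levels of different genes are not compared. Log2 fold changes are knockout minus control, with their standard error. Pdcd10 measured 23.5, 23.2, 19.6 and 21.4 CPM in controls 1 to 4 and 7.74, 10.3, 8.04 and 9.15 CPM in knockouts 1 to 4, and the groups did not overlap. Its log2 fold change was -1.32 ± 0.14 (adjusted p = 4.08e-05). In which cells Pdcd10 RNA fell was not tested. Summed over 16 astrocyte markers, the level was 54700 to 61300 CPM in controls and 43600 to 59700 CPM in knockouts, and 0 of the 16 were called. Several marker lists of other cell types differed between the groups, in both directions. Summed endothelial markers were 17 to 41.9 CPM in controls and 37 to 133 CPM in knockouts, with 7 of 12 called higher. Those of pericytes and smooth muscle were 126 to 219 and 326 to 369 CPM, with 7 of 11 called higher. Neuron markers summed to 1460 to 1950 CPM in controls and 1930 to 3680 CPM in knockouts, with 3 of 11 called higher and knockout 1 the highest. All 5 erythroid markers were called higher, from 0.899 to 4.33 CPM in controls to 10.1 to 48.5 CPM in knockouts. In the other direction, lymphocyte markers summed to 5.33 to 6.61 CPM in controls and 2 to 4.21 CPM in knockouts, with 2 of 4 called lower. Fibroblast and leptomeninges markers summed to 4090 to 8690 CPM in controls and 2540 to 6260 CPM in knockouts, although 2 of 10 were called higher and 0 lower. Choroid plexus and ependyma markers summed to 1090 to 4640 and 309 to 2050 CPM (median log2 fold change -0.93), with 1 of 10 called higher and 0 lower. Mitochondrially encoded RNA made up 0.00263 to 0.00363% of the counts in controls and 0.0065 to 0.0214% in knockouts. Summed Y-linked RNA was 4.83 CPM in control 3 and 0.946 CPM in control 4 against 98.7 to 132 CPM in the other 6 libraries, although every sample carries the tag male. The part of these differences in the results below was not tested, except where a value without the libraries concerned is given.

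A gene was called when its Benjamini-Hochberg adjusted p in edgeR's quasi-likelihood test was under 0.05. In all, 2415 genes (12.2% of those tested) were called, of which 1369 (6.9%) were higher and 1046 (5.27%) were lower in knockouts. The groups did not overlap for 1949 genes with every knockout higher (9.82%) and 1954 with every knockout lower (9.84%), called or not. Changes of at least 2-fold were found for 691 of the genes called higher and for 87 of those called lower. Without control libraries 3 and 4, the pair low in Y-linked RNA, 466 genes were called, 290 higher and 176 lower. Many genes named below lost their call in that run, and this is stated only for some of them. Leaving out 1 library gave between 1122 calls (without knockout 3) and 3149 (without knockout 2). In the first principal component of the 2000 most variable genes, which held 35.1% of the variance, the knockouts lay at -45.3, -12.6, -42.9 and -19.2 and the controls at 26 to 36.9. Knockout 2 was thus the nearest to the controls, and many of the values below follow that order.

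The 12 genes called higher with the smallest adjusted p included cytoskeletal genes. Nes encodes nestin, an intermediate filament of neural progenitors, reactive astrocytes and new vessels. It measured 2.57, 4.77, 3.07 and 3.39 CPM in controls and 21.6, 16.2, 23.2 and 18.7 CPM in knockouts, a log2 fold change of 2.53 ± 0.2 (adjusted p = 3.08e-06). Every knockout was far above every control. Vim, encoding vimentin, measured 218, 235, 262 and 274 CPM in controls and 616, 487, 908 and 614 CPM in knockouts (1.41 ± 0.14). Gfap, the main intermediate filament of astrocytes, measured 5270, 6620, 5590 and 4960 CPM in controls and 10600, 10600, 13700 and 10900 CPM in knockouts (1.03 ± 0.12). For Vim as for Gfap, knockout 3 was the highest library and no groups overlapped. Eda2r, a receptor of the TNF family and a target of p53, measured 0.444 to 0.674 CPM in controls and 2.3 to 7.59 CPM in knockouts (3.28 ± 0.34). Pdyn, which encodes the opioid precursor prodynorphin, rose from 3.34 to 4.35 CPM to 10.5 to 20.3 CPM (1.89 ± 0.2). Others of the 12 were Sfrp4, a secreted WNT antagonist (1.33 ± 0.15), Glipr2 (1 ± 0.11), the kinase Nek6 (0.76 ± 0.09), the aldehyde dehydrogenase Aldh3b1 (0.53 ± 0.07) and the histone gene Hist1h4h (1.35 ± 0.15).

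**Figure D1:**
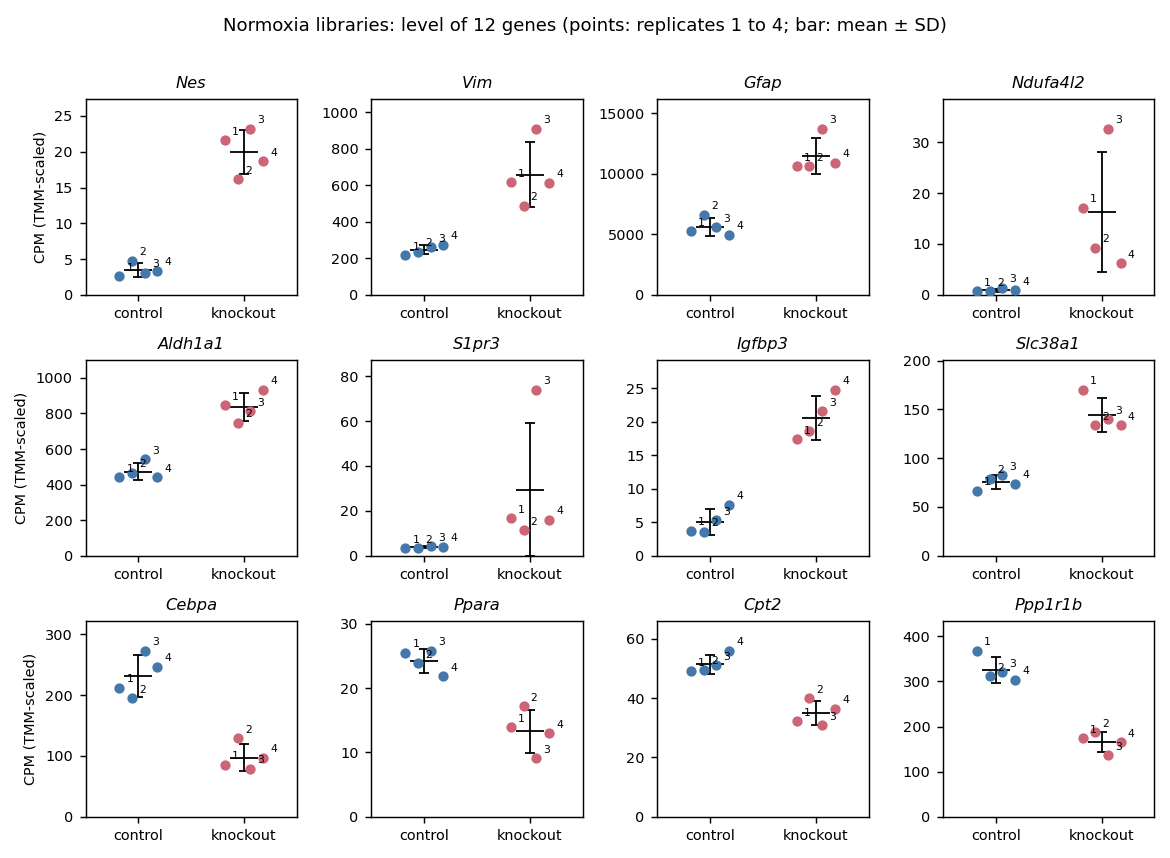
Level of 12 genes in each normoxic library, in TMM-scaled CPM on a linear axis from 0, with controls in blue and knockouts in red; points are libraries numbered by replicate, and bars show the mean ± SD (n = 4). In each of the 12 panels the groups do not overlap, and knockout 3 stands far above the other knockouts for S1pr3 (73.9 CPM).

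Pdcd10 had the smallest adjusted p among the genes called lower. It was followed by genes of several kinds. Cebpa, a transcription factor that drives differentiation of fat, liver and myeloid cells, fell from 212, 195, 273 and 247 CPM to 85.3, 129, 78.7 and 96.8 CPM (-1.25 ± 0.16). Ppp1r1b encodes DARPP-32, an inhibitor of protein phosphatase 1 best known from dopamine signalling, and fell from 368, 311, 321 and 304 CPM to 174, 187, 137 and 165 CPM (-0.97 ± 0.13). Neither gene's groups overlapped, and knockout 2 was the highest knockout for both. Arl4d, a small GTPase of the ARF family, fell from 24.8 to 52.7 CPM to 8.73 to 17.5 CPM (-1.75 ± 0.25). Cdca7, a gene of the cell cycle, fell by 1.19 ± 0.16 on the log2 scale. Asb8 (-0.45 ± 0.06), Leng9 (-0.73 ± 0.09), Osgin2 (-0.71 ± 0.09), Zscan22 (-0.61 ± 0.08), Hdhd3 (-0.95 ± 0.13), the autophagy protease Atg4d (-0.63 ± 0.09) and the mitochondrial formyltransferase Mtfmt (-0.6 ± 0.09) completed the 12. Of the genes that mark the design, Aldh1l1 measured 786 to 872 CPM in controls and 664 to 791 CPM in knockouts and was not called (-0.2 ± 0.13, adjusted p = 0.319). Rpl10a, the ribosomal protein that carries the tag, measured 460 to 503 CPM in controls and 198 to 434 CPM in knockouts and was not called either (-0.45 ± 0.24, adjusted p = 0.225).

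**Figure D2:**
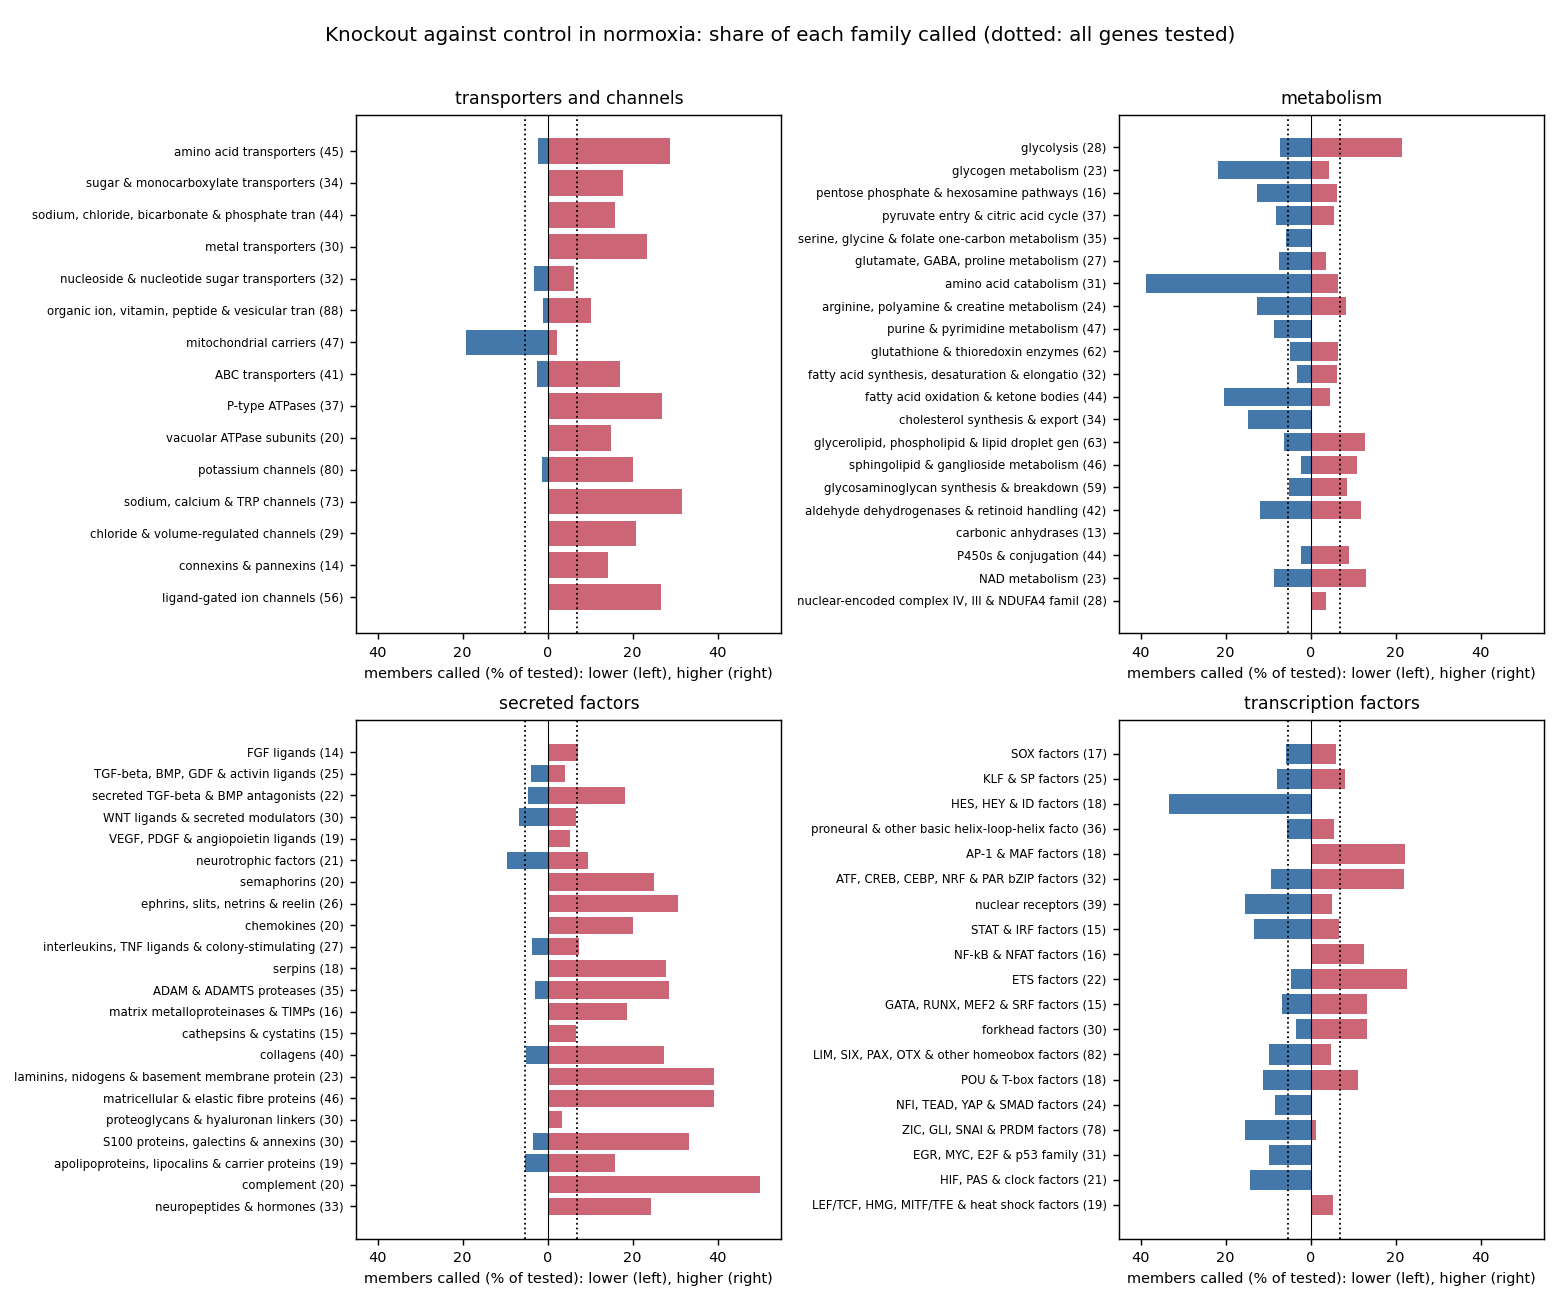
Share of each gene family called in knockouts against controls in normoxia, in percent of the tested members given in parentheses, for families of 13 or more; red bars to the right are members called higher, blue bars to the left members called lower, and dotted lines mark the share over all genes tested. Complement, basement membrane and matricellular families reach farthest to the right, and amino acid catabolism and HES, HEY and ID factors farthest to the left.

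Transporters and channels were mostly unchanged or higher. Of 677 tested, 127 (18.8%) were called higher and 14 (2.07%) lower, and the median log2 fold change was 0.25, against -0.01 over all genes. Among 45 amino acid transporters 13 were called higher and 1 lower. Slc38a1, a sodium-coupled glutamine transporter, measured 66.8, 79, 82.8 and 73.8 CPM in controls and 170, 134, 140 and 134 CPM in knockouts (0.93 ± 0.15, adjusted p = 0.00101). The transporters of large neutral amino acids Slc43a2 (0.78 ± 0.16) and Slc43a3, now known to carry purine nucleobases (1.29 ± 0.19), also rose. Slc6a9, the glycine transporter GlyT1, was the 1 member called lower: it fell from 33.6, 38, 54.9 and 35.4 CPM to 22.2, 23.6, 21.5 and 27 CPM (-0.78 ± 0.17). Other transporters called higher were the glucose transporter family member Slc2a6 (1.29 ± 0.28), the bicarbonate exchanger Slc4a3 (0.6 ± 0.12), the iron exporter Slc40a1 (1.15 ± 0.24) and the magnesium transporter Slc41a2 (0.71 ± 0.16). With 1 library left out, the count of amino acid transporters called higher was lowest without knockout 1, at 6, and without controls 3 and 4 it was 4.

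Channels and other genes of neuronal excitability were called higher more often than lower. Of 73 sodium, calcium and TRP channels 23 were called higher and 0 lower, with a median of 0.57. Of 56 ligand-gated channels 15 were called higher and 0 lower (median 0.49), and of 80 potassium channels 16 and 1 (median 0.44). Hcn2, a pacemaker channel, measured 16.1 to 17.7 CPM in controls and 44.5, 23, 41.5 and 30.9 CPM in knockouts (1.04 ± 0.2). Gria1, an AMPA receptor subunit, measured 54.2 to 66.5 CPM in controls and 172, 92.3, 116 and 116 CPM in knockouts (1.05 ± 0.18). Grin1, the obligate NMDA receptor subunit, rose by 1.74 ± 0.37, Grik4 by 0.98 ± 0.16, the inward rectifier Kcnj2 by 1.45 ± 0.28 and the background potassium channel Kcnk10 by 0.87 ± 0.21. In the same direction went Slc12a5, the chloride exporter of neurons (1.8 ± 0.4) and Slc17a7, the vesicular glutamate transporter VGLUT1 (1.65 ± 0.35). Knockout 1 was the highest and knockout 2 the lowest knockout for Hcn2 and Gria1, as for the summed neuron markers, which were 3680, 1930, 2840 and 2280 CPM in knockouts 1 to 4. Without knockout 1, which was the library whose absence lowered these counts most, 8 of the 73 sodium, calcium and TRP channels, 5 of the 56 ligand-gated channels and 3 of the 80 potassium channels were called higher. Without controls 3 and 4 the counts were 2, 2 and 1. The part of neuronal RNA in these changes was not tested.

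Other transporter genes also changed, and the part of neuronal RNA in these changes was not tested either. Clic4, an intracellular chloride channel, measured 135 to 170 CPM in controls and 200 to 257 CPM in knockouts (0.58 ± 0.09). Among 37 P-type ATPases 10 were called higher (6 without knockout 1 and 2 without controls 3 and 4), among them the plasma membrane calcium pump Atp2b4 (1.43 ± 0.28), the phospholipid flippase Atp8a1 (0.82 ± 0.16) and Atp13a5 (1.1 ± 0.22). The adjacent lipid transporter genes Abca8b and Abca8a, close copies whose reads may be shared, went opposite ways. Abca8b measured 2.73 to 3.39 CPM in controls and 5.2 to 5.74 CPM in knockouts (0.79 ± 0.12), and Abca8a 9.19 to 10.5 CPM in controls and 4.15 to 7.45 CPM in knockouts (-0.77 ± 0.16). None of the 7 aquaporins and none of the 13 carbonic anhydrases were called in either direction. Mitochondrial carriers were the transporter family with most members called lower, 9 of 47 with 1 higher (median -0.1). The dicarboxylate carrier Slc25a10 measured 58.5, 60.6, 59.4 and 54.8 CPM in controls and 33.4, 41.5, 34.1 and 37.2 CPM in knockouts (-0.67 ± 0.11), and the oxoglutarate carrier Slc25a11 fell by 0.4 ± 0.07 on the log2 scale. The count of carriers called lower was 6 without knockout 3 and 2 without controls 3 and 4.

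Of 753 genes of metabolism, 54 (7.17%) were called higher, near the 6.9% of all genes, and 69 (9.16%) lower, against 5.27% of all genes. Their median was -0.06. Ndufa4l2 encodes a protein that replaces a subunit of the respiratory chain in hypoxic cells, and is also a marker of brain pericytes. It measured 0.72, 0.719, 1.37 and 0.89 CPM in controls and 17.1, 9.23, 32.6 and 6.18 CPM in knockouts (4.14 ± 0.56, adjusted p = 0.000294). Every knockout was above every control, and knockout 3 was the highest. Its relative Ndufa4 was not called (-0.17 ± 0.1, adjusted p = 0.279), a gene added after its value was seen, as were Ldha, Hk1 and Scg2 below. In glycolysis 6 of 28 genes were called higher (4 without controls 3 and 4) and 2 lower (0 without knockout 4). Pfkp and Pfkl encode phosphofructokinase, which commits glucose to glycolysis. Pfkp measured 179, 207, 210 and 199 CPM in controls and 347, 254, 393 and 283 CPM in knockouts (0.69 ± 0.11), and Pfkl rose by 0.46 ± 0.07. Gpi1, the glucose phosphate isomerase, rose by 0.45 ± 0.08, from 949 to 989 CPM to 1210 to 1480 CPM. Pdk1, a kinase that shuts pyruvate out of the citric acid cycle, rose by 0.43 ± 0.07, and the malic enzyme Me1 by 0.41 ± 0.08. Pdk4, another kinase of this kind, which is induced with fatty acid use, fell by 0.62 ± 0.14 and the opposing phosphatase Pdp2 by 0.67 ± 0.14.

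**Figure D3:**
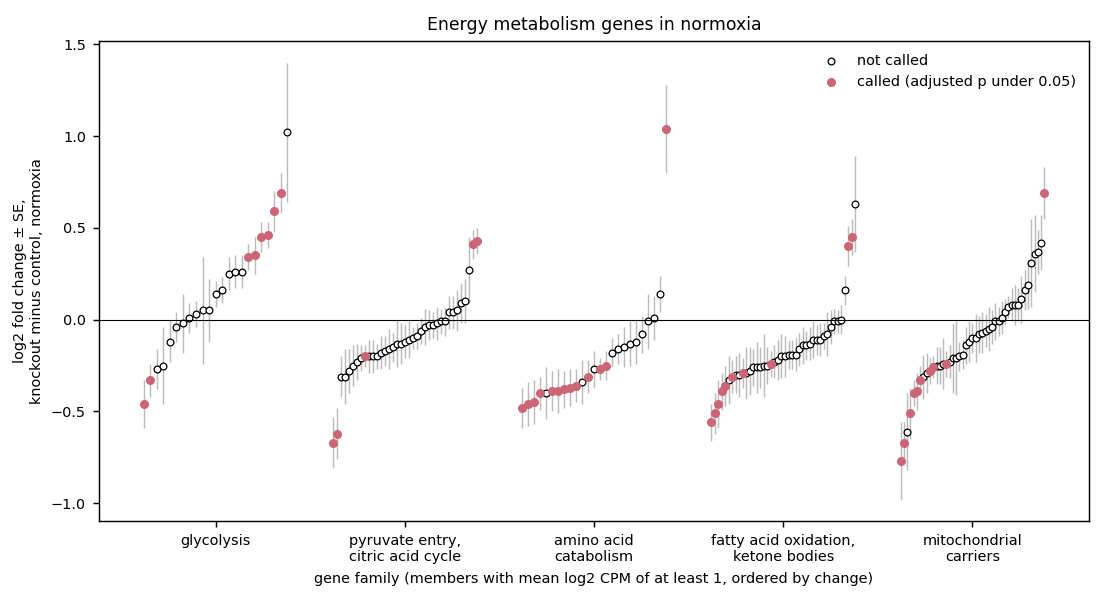
Log2 fold change (knockout minus control, normoxia) with its SE for genes of 5 families of energy metabolism whose mean log2 CPM reached 1, ordered by change within a family; filled red points are called at an adjusted p under 0.05, open points are not. Called genes of glycolysis lie mostly above 0, while those of amino acid catabolism, fatty acid oxidation and the mitochondrial carriers lie mostly below 0.

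Several oxidative families had more members called lower than higher, and others did not. Of 37 genes of pyruvate entry and the citric acid cycle 2 were called higher and 3 lower, and of 28 nuclear-encoded genes of respiratory complexes III and IV and the NDUFA4 family 1 and 0, which are near or below the shares over all genes. In the breakdown of branched-chain amino acids, lysine, tryptophan and sulfur amino acids 12 of 31 genes were called lower and 2 higher (median -0.27). Ivd, which acts on leucine, measured 362, 386, 396 and 389 CPM in controls and 244, 357, 218 and 277 CPM in knockouts (-0.48 ± 0.11), and Acad8, which acts on valine, fell by 0.4 ± 0.09. Bcat1, the cytosolic transaminase that starts this pathway, rose from 22.1 to 28.6 CPM to 47.4 to 56.1 CPM (1.04 ± 0.24), a call lost with Y-linked RNA as a covariate (0.89) and without controls 3 and 4 (1.2). In fatty acid oxidation and ketone metabolism 9 of 44 genes were called lower and 2 higher (median -0.21). Cpt2, which delivers fatty acids inside mitochondria, measured 49.1, 49.6, 51.1 and 56 CPM in controls and 32.3, 39.9, 30.9 and 36.5 CPM in knockouts (-0.56 ± 0.1, adjusted p = 0.00241), and the thiolase Acaa2 fell by 0.51 ± 0.11. Knockout 2 was the knockout nearest to the controls for Ivd, Cpt2 and Acaa2. Without knockout 3 the count for amino acid breakdown was 3, and without knockout 1 the count for fatty acid oxidation was 2. Without controls 3 and 4 the counts were 1 and 0. Calls lower over all genes fell in these runs too, from 1046 to 478 without knockout 3, 643 without knockout 1 and 176 without controls 3 and 4. Cpt2 and Ivd kept negative values under each alternative run and lost their call only without controls 3 and 4.

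Glycogen, sterol and membrane lipid genes followed. In glycogen metabolism 5 of 23 genes were called lower (3 without knockout 3 and 1 without controls 3 and 4) and 1 higher. The regulatory subunits that bring protein phosphatase 1 to glycogen, Ppp1r3b (-1.08 ± 0.24) and Ppp1r3d (-0.83 ± 0.2), fell, as did Nhlrc1, the ubiquitin ligase malin (-0.55 ± 0.11). In cholesterol synthesis and export 5 of 34 were called lower (3 without knockout 1 and 3 without controls 3 and 4) and 0 higher. Mvd, an enzyme of the mevalonate pathway, measured 135, 136, 117 and 124 CPM in controls and 69.6, 87.5, 67.7 and 65.4 CPM in knockouts (-0.82 ± 0.17), Hsd17b7 fell by 0.78 ± 0.15 and Acat2 by 0.34 ± 0.08. Lpcat1, which remodels phosphatidylcholine, rose from 40.4 to 51.8 CPM to 114 to 146 CPM (1.37 ± 0.21), whereas Pcyt2 of phosphatidylethanolamine synthesis fell (-0.43 ± 0.07). Sulf2, which trims sulfate from heparan sulfate, rose by 1.04 ± 0.18 and Extl1, a glycosyltransferase of its synthesis, fell by 0.59 ± 0.09. The galactosyltransferase B4galt5, which makes lactosylceramide, rose by 1.33 ± 0.17. Aldh1a1, which makes retinoic acid, measured 442, 468, 542 and 443 CPM in controls and 847, 748, 814 and 933 CPM in knockouts (0.82 ± 0.1). Crabp2, which carries retinoic acid to the nucleus, fell from 17.9 to 38.5 CPM to 5.61 to 15.8 CPM (-1.45 ± 0.33). Also higher were the epoxide hydrolase Ephx1 (1.08 ± 0.22), Cyp1b1 (0.88 ± 0.18), the DNA repair enzyme Parp3 (0.9 ± 0.12) and the polyamine acetyltransferase Sat1 (0.59 ± 0.1). The alanine transaminase Gpt was lower (-0.64 ± 0.16), and it was not called without knockout 3 (-0.56) or without controls 3 and 4 (-0.69). Gsto1, a glutathione transferase, fell by 0.5 ± 0.08.

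Promoters were read to show the sequence in front of 1 gene called higher of each kind, Ldha for glycolysis and Chgb for the secreted peptides described below. Both carry the motif shown, which most promoters of the genes called higher in their families lack, as counted below. Ldha, lactate dehydrogenase A, was called higher (0.59 ± 0.11, adjusted p = 0.00329) and measured 315 to 336 CPM in controls and 423 to 640 CPM in knockouts. Its promoter is shown with ACGTG, the core of the hypoxia response element, in capitals on either strand. Chgb encodes chromogranin B of dense-core vesicles, and its promoter is shown with TGACGTCA, the cAMP response element, in capitals. Both are the windows from 250 bases before to 50 bases after the transcript start, from RefSeq in build GRCm38.p6, on the plus strand at chr7:46845554-46845853 and chr2:132781392-132781691.
Ldha promoter: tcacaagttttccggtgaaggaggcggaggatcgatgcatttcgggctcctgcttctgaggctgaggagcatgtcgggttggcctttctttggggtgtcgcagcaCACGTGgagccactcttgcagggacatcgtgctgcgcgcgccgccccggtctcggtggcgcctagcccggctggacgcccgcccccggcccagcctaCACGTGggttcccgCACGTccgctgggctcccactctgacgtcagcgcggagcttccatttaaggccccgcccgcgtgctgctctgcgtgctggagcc
Chgb promoter: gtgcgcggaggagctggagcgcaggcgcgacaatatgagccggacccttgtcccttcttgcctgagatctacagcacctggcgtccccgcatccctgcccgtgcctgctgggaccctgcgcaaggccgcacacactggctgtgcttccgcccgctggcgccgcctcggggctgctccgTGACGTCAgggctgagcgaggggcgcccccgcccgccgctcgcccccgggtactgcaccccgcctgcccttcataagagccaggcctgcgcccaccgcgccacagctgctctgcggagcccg
The Ldha window held 3 such runs, starting 145, 48 and 34 bases before the transcript start, of which the first pair are CACGTG and match on both strands. The Chgb window held 1, starting 72 bases before it. Capitals mark only the motif named for each gene, and the Ldha window also holds TGACGTCA, in lower case. Another listed Ldha start had no match in its window.

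In all, 11 motifs, chosen with results known, were searched on both strands of 16448 promoters of tested genes. ACGTG was in 23.7% of all of them, in 19.6% of those of genes called higher, in 26.4% of those called lower, and in 2 of 10 promoters of the glycolysis genes called higher (those of Ldha and Hk1). Over all tested glycolysis genes it was in 17 of 43 promoters (39.5%), a larger share than among those called higher. TGACGTCA was in 2.73%, 2.46% and 2.62%, and in 2 of 8 promoters of the neuropeptide and hormone genes called higher (those of Chgb and Scg2). It was also in 1 of 10 promoters of the glycolysis genes called higher, that of Ldha. AAGGTCA, the site of estrogen-related receptors, was in 3.44%, 3.34% and 2.53%, and in 0 of 30 promoters of the oxidative genes called lower. Over all tested genes of those oxidative families it was in 3 of 115 promoters. TGACTCA, the AP-1 site, was in 3.84% of all promoters, in 5.64% of those called higher, in 3.11% of those called lower, and in 5 of 30 promoters of the oxidative genes called lower. Over all tested genes of the same families it was in 5 of 115 promoters. TGACGT, part of TGACGTCA, was in 10.2%, 6.67% and 11.4%, and CACGTG, the E-box, which contains ACGTG, in 9.13%, 8.42% and 10.8%. CACCC, of KLF sites, was in 63.8%, 68.9% and 61.4%, and CACGTGTC, a longer form of the E-box, in 0.772%, 0.635% and 0.875%. TTACGTAA, of PAR bZIP factors, was in 0.14% of all promoters, and the longer consensus sites of NF-kappaB and of serum response factor, each read as a single 10-letter word, in 0.176% and 0.0243%. A match here is a run of letters and no evidence of binding.

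Secreted factors had a larger share of genes called higher than the other classes examined, apart from the cell type markers. Of 565 tested, 120 (21.2%) were called higher and 14 (2.48%) lower (median 0.28). Igfbp3, a carrier of insulin-like growth factors, measured 3.72, 3.6, 5.3 and 7.64 CPM in controls and 17.4, 18.6, 21.6 and 24.8 CPM in knockouts (2.02 ± 0.28, adjusted p = 0.000301). Igfbp4, a carrier of the same family, rose from 21.9 to 27.5 CPM to 36.7 to 83 CPM (1.33 ± 0.19). Igfbp5 went the other way, from 368, 451, 396 and 363 CPM to 217, 238, 159 and 234 CPM (-0.9 ± 0.25, adjusted p = 0.0248), and its call was lost under several alternatives, the Y-linked covariate among them. Growth factors and cytokines were among the genes called higher. Angpt1, the ligand of the endothelial receptor Tie2, rose by 0.96 ± 0.18, Tgfb3 by 0.93 ± 0.19, the follistatin-like protein Fstl1 by 0.91 ± 0.17 and the cytokine Lif by 0.93 ± 0.22. Lif measured 19.2 CPM in knockout 3 and 6.52 to 11.3 CPM in the other knockouts, and its call was lost in normoxic libraries alone (0.92), with the replicate block there (0.8) and without controls 3 and 4 (0.98). The chemokine Cxcl10, induced by interferon, measured 1.12, 1.44, 1.48 and 1.26 CPM in controls and 4.86, 3.14, 6.41 and 9.28 CPM in knockouts (2.16 ± 0.3). Cx3cl1, a chemokine that neurons make, rose by 1.53 ± 0.35 with its highest level in knockout 1 (298 CPM), as the neuron markers had. Slit1, a guidance ligand, did likewise (1.69 ± 0.37).

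Several matrix families had larger shares called higher than all genes tested. Proteoglycans and hyaluronan linkers did not, with 1 of 30 called higher and 0 lower (median 0.12). Of 46 matricellular and elastic fibre genes 18 were called higher and 0 lower (median 0.71). Of 23 laminins, nidogens and basement membrane genes 9 were called higher and 0 lower (median 0.46), and of 40 collagens 11 and 2 (median 0.52). Col4a1, a collagen of basement membranes, measured 8.44, 12, 10.9 and 11.9 CPM in controls and 66.7, 18.1, 49 and 23.2 CPM in knockouts (1.86 ± 0.29). Nid1, which links laminin to collagen, measured 3.84, 7.52, 8.33 and 9.76 CPM in controls and 27.4, 17.4, 40.5 and 20.4 CPM in knockouts (1.84 ± 0.33). For both genes knockouts 1 and 3 were the highest libraries, as they were for the summed endothelial markers, which were 133, 37, 107 and 60.1 CPM in knockouts 1 to 4. Col18a1, the source of endostatin, rose by 1.54 ± 0.23, the laminin chain Lamc3 by 1.37 ± 0.23, Tgfbi by 1.61 ± 0.3 and tenascin X (Tnxb) by 0.99 ± 0.18. Among 35 ADAM and ADAMTS proteases 10 were called higher and 1 lower, among them Adamts1 (1.21 ± 0.24), which cuts proteoglycans, and Adamts15 (1.1 ± 0.22). That count was 2 without knockout 3, 3 with Y-linked RNA as a covariate and 3 without controls 3 and 4. The matricellular count was 11 without control 1 and 10 without controls 3 and 4, the basement membrane count 4 without knockout 3 and 3 without controls 3 and 4, and the collagen count 6 without knockout 1 and 5 without controls 3 and 4. The part of vascular RNA in these changes was not tested.

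Of 20 complement genes 10 were called higher and 0 lower (median 0.89), with 7 without knockout 3 and 3 without controls 3 and 4. C4b, a complement component that reactive astrocytes make and whose reads may be shared with its near copy C4a, measured 47.8, 69.8, 83.3 and 78.5 CPM in controls and 138, 134, 158 and 128 CPM in knockouts (1 ± 0.21). C1qb, a microglial subunit of C1q, rose by 1.19 ± 0.25, although knockout 2 at 7.3 CPM lay just below control 2 at 7.38 CPM. Microglia markers summed to 197 to 241 CPM in controls and 184 to 229 CPM in knockouts, with 5 of 11 called higher and 0 lower (median 0.69). Their mean log2 CPM, relative to the controls, was 0.53, 0.27, 0.96 and 0.48 in knockouts 1 to 4 and -0.13 to 0.13 in controls. Of 27 interleukins, TNF ligands and colony-stimulating factors 2 were called higher and 1 lower. Of 30 genes of S100 proteins, galectins and annexins 10 were called higher and 1 lower, with 4 higher without knockout 3 and 3 without controls 3 and 4. The galectin Lgals1 rose from 56.7 to 68.5 CPM to 88.2 to 129 CPM (0.72 ± 0.1), annexin A2 (Anxa2) by 1.26 ± 0.19, and S100b, a calcium-binding protein of astrocytes, from 608 to 663 CPM to 780 to 1040 CPM (0.52 ± 0.09). Of 33 neuropeptides and hormones 8 were called higher and 0 lower, with 3 higher without knockout 3, 3 with Y-linked RNA as a covariate and 1 without controls 3 and 4. Chgb measured 21.6, 19.9, 16.9 and 14.6 CPM in controls and 125, 29.7, 116 and 58.9 CPM in knockouts (2.18 ± 0.43), with the highest levels in knockouts 1 and 3. Scg2, a granin of the same vesicles, rose by 1.42 ± 0.41.

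**Figure D4:**
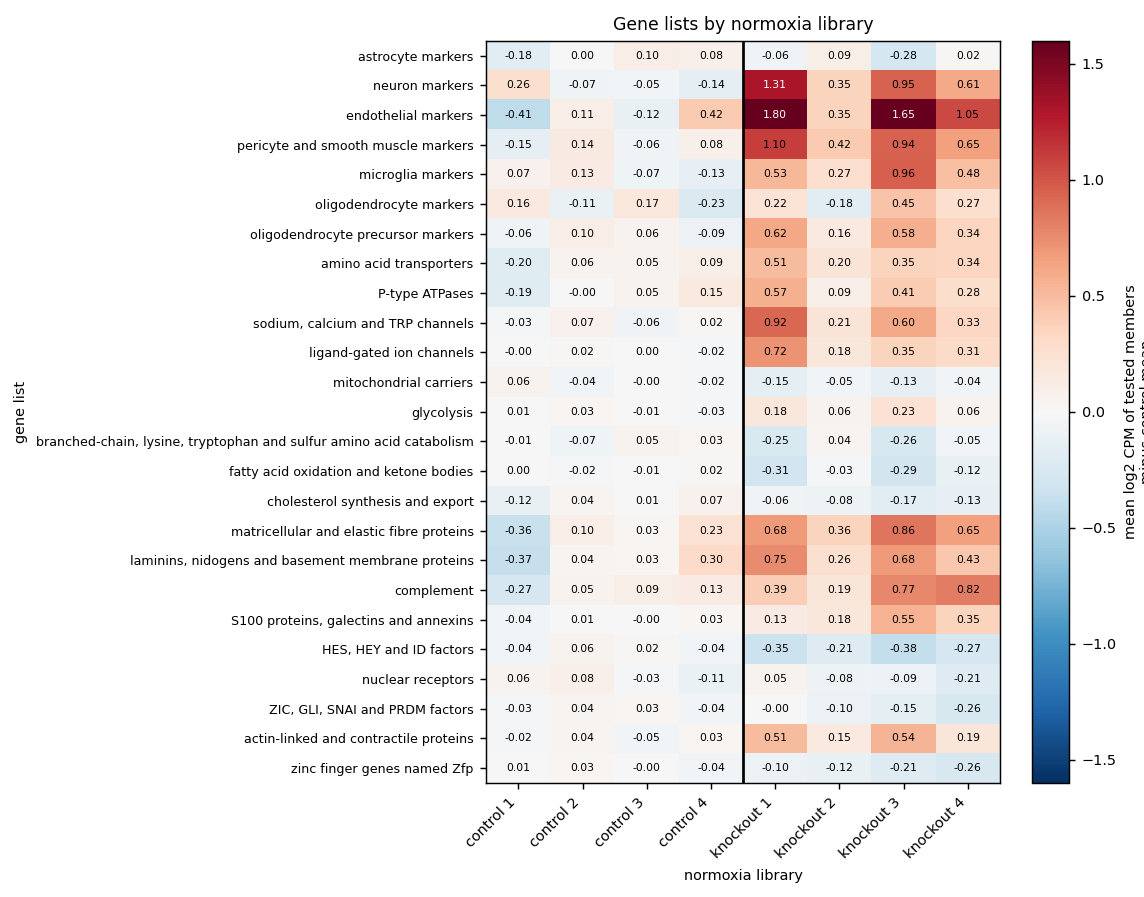
Mean log2 CPM of the tested members of 25 gene lists in each normoxic library, minus the mean of the 4 controls; rows are lists, columns are libraries, and the colour and the printed number give the difference (red higher, blue lower). Neuron and endothelial markers differ most between knockouts, with knockout 2 at 0.35 for each, while astrocyte markers stay between -0.28 and 0.1 in all 8 libraries.

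Transcription factors were called lower more often than higher. Of 556 tested, 40 (7.19%) were called higher, near the 6.9% of all genes, and 55 (9.89%) lower, against 5.27% of all genes (median -0.09). The family that holds HES, HEY and ID factors and their TLE partners, which relay Notch and BMP signals, had 6 of 18 members called lower and 0 higher (median -0.29). Hey2 measured 36.6, 32.8, 37 and 37.7 CPM in controls and 22.5, 23.7, 18.8 and 20.8 CPM in knockouts (-0.75 ± 0.14). Id2 measured 1140, 1100, 1060 and 1080 CPM in controls and 712, 741, 605 and 835 CPM in knockouts (-0.6 ± 0.15), with no overlap. It was not called without knockout 3 (-0.52) or without controls 3 and 4 (-0.63). Tle1 (-0.36 ± 0.08) and Tle2 (-0.64 ± 0.14), corepressors that HES factors recruit, also fell. The count stayed at 5 or more with any 1 library left out and was 2 without controls 3 and 4.

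Regulators of metabolism were among the factors called lower. Of 39 nuclear receptors 6 were called lower and 2 higher, with 2 lower without control 2 and 3 without controls 3 and 4. Ppara, a receptor for fatty acids that activates their oxidation, measured 25.5, 23.9, 25.8 and 21.8 CPM in controls and 13.9, 17.2, 9.12 and 13 CPM in knockouts (-0.87 ± 0.17, adjusted p = 0.00369). Esrra, a receptor-like factor of mitochondrial genes, fell from 104 to 118 CPM to 70.1 to 91.5 CPM (-0.38 ± 0.08). Mlx, the partner of the glucose-sensing factor ChREBP, fell by 0.44 ± 0.09. Of 21 HIF, PAS and clock factors 3 were called lower and 0 higher (median -0.19), with 2 lower without knockout 3 and 1 without controls 3 and 4. Per1 (-0.8 ± 0.17) and Arntl (-0.47 ± 0.11) were among the 3. Tef (-0.38 ± 0.08) also fell, from a list of 32 bZIP factors with 7 called higher and 3 lower. No hour of dissection is stated in the labels. Of 82 homeobox factors 8 were called lower and 4 higher, of 17 SOX factors 1 and 1, and of 36 proneural and other basic helix-loop-helix factors 2 and 2. Single factors called lower were the homeobox genes Prox1 (-0.64 ± 0.14) and Msx1 (-0.74 ± 0.16), Insm1 (-1.33 ± 0.26), Sp4 (-0.7 ± 0.17, and -0.63 without a call without knockout 3), Sox11 (-0.58 ± 0.15, and -0.46 without a call without control 2), Tead2 (-0.48 ± 0.11) and the TEAD cofactor Vgll4 (-0.69 ± 0.16). Without controls 3 and 4, Arntl (-0.52), Sp4 (-0.76), Msx1 (-0.75), Tead2 (-0.45), Vgll4 (-0.74) and Zbtb7b (-0.45) were not called. Zbtb7b belonged to a list of zinc finger factors in which 12 of 78 were called lower and 1 higher, and fell by 0.45 ± 0.09. The lower count of that list was 4 without knockout 3, 6 with Y-linked RNA as a covariate and 0 without controls 3 and 4.

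The factors called higher included some of stress and injury. Of 18 AP-1 and MAF factors 4 were called higher and 0 lower, with 2 higher without knockout 1 and 1 without controls 3 and 4. Jun measured 138, 136, 129 and 110 CPM in controls and 228, 188, 291 and 245 CPM in knockouts (0.89 ± 0.14), and Maff rose by 1.23 ± 0.27. Klf6, induced by injury, rose from 35.8 to 44.3 CPM to 56.5 to 82.2 CPM (0.73 ± 0.09). Ddit3 (CHOP), of the unfolded protein response, rose by 0.66 ± 0.1, Creb5 by 0.93 ± 0.2 and Elk3, an ETS factor, by 0.91 ± 0.15. Stat3, which astrocytes need to become reactive, rose from 238 to 265 CPM to 307 to 432 CPM (0.48 ± 0.1). Olig1 measured 286, 326, 317 and 266 CPM in controls and 519, 504, 495 and 562 CPM in knockouts (0.8 ± 0.11), and Olig2 rose by 1.39 ± 0.23, both factors of the oligodendrocyte lineage. Markers of oligodendrocyte precursors summed to 362 to 443 CPM in controls and 641 to 748 CPM in knockouts. That list of 8 includes Olig1 and Olig2, which were the 2 called higher and made up most of the sum. It is thus no separate measure of precursor RNA. Of 9 oligodendrocyte markers 0 were called. Hopx rose by 0.45 ± 0.1 and Ctnnb1, encoding beta-catenin, by 0.37 ± 0.08.

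Receptors and signalling genes were called higher in 65 of 431 cases (15.1%) and lower in 14 (3.25%). S1pr3, a receptor for sphingosine 1-phosphate that reactive astrocytes and vessels express, measured 3.37, 3.47, 4.27 and 4.08 CPM in controls and 16.8, 11.3, 73.9 and 16 CPM in knockouts (2.96 ± 0.49, adjusted p = 0.00122). Knockout 3 was more than 4 times the next highest library, and the other knockouts were all above the controls. Csf1r, the microglial growth factor receptor (1.21 ± 0.2), Met (1.55 ± 0.26), Eng, an endothelial coreceptor of TGF-beta (1.41 ± 0.23), and the death receptor Tnfrsf10b (1.37 ± 0.22) rose. Of the WNT receptors, Fzd3 rose by 0.73 ± 0.13 and Fzd2 fell from 105 to 159 CPM to 44.5 to 74.5 CPM (-1.16 ± 0.28). Fzd2 was not called without knockout 3 (-1.03) or without controls 3 and 4 (-0.91). Bambi, a decoy receptor that dampens BMP and TGF-beta signals, fell by 0.89 ± 0.19. Rgs5, a pericyte gene, measured 5.13, 4.34, 3.3 and 4.6 CPM in controls and 32.1, 11.4, 31.2 and 23.1 CPM in knockouts (2.49 ± 0.32). Socs3, a feedback inhibitor of STAT3, rose by 1.71 ± 0.34, with knockout 3 the highest at 24.3 CPM, and the phosphatases Dusp3 (0.55 ± 0.1) and Dusp8 (0.74 ± 0.14) rose while Errfi1, an inhibitor of EGF receptors, fell (-0.43 ± 0.09).

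Genes of structure and stress were called higher in 62 of 447 cases (13.9%) and lower in 10 (2.24%). That class also holds ribosomal protein, chaperone, metallothionein, cell cycle and mitochondrially encoded genes, so these are not the shares of structural genes alone. Of its 73 heat shock proteins and chaperones 4 were called higher and 4 lower. Of 86 actin-linked and contractile genes 24 were called higher and 0 lower (median 0.37), of 66 tubulins and kinesins 15 and 2, and of 30 intermediate filament genes 9 and 0. Tagln2, an actin-binding protein, measured 24.8, 26.2, 19.5 and 21.9 CPM in controls and 69.7, 47.9, 164 and 74.4 CPM in knockouts (1.94 ± 0.26), and Msn, encoding moesin, rose by 1.13 ± 0.15. The tubulin genes Tubb2b (0.61 ± 0.09) and Tuba1a (0.78 ± 0.1), both of close families in which reads may be shared, rose. Among cell cycle regulators, Cdkn1a (p21), which halts the cycle and is a target of p53, measured 28.9, 22, 25.7 and 22.6 CPM in controls and 138, 49.6, 140 and 165 CPM in knockouts (2.31 ± 0.43). Ccnd1, which promotes it, rose by 1.27 ± 0.19, and Cdkn1c fell by 1.15 ± 0.26. Of 86 cytosolic ribosomal protein genes 0 were called in normoxia. Of 13 mitochondrially encoded genes (median 1.68) 0 were called in the fit of all 19 libraries and 9 were called higher when the 8 normoxic libraries were fitted alone. For 11 of the 13 every knockout lay above every control, and 10 were called higher in hypoxia. Without knockout 3 the actin-linked count was 13 and the intermediate filament count 3, without knockout 1 the tubulin and kinesin count was 7, and without controls 3 and 4 the counts were 8, 3 and 4.

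The hypoxic libraries gave a second measurement of the same genotypes. In them 3917 genes (19.7%) were called, 2057 (10.4%) higher and 1860 (9.37%) lower. Of the 1369 genes called higher in normoxia 777 (56.8%) were called higher in hypoxia too, which is 37.8% of the 2057, and 3 were called lower. Of the 1046 called lower 437 (41.8%) were called lower in hypoxia, 23.5% of the 1860, and 2 were called higher. The sign was the same for 2265 of the 2415. Nes (2.57 ± 0.19 in hypoxia), Ndufa4l2 (4.22 ± 0.53), Eda2r (3.78 ± 0.33), Cebpa (-1.52 ± 0.13), Cpt2 (-0.54 ± 0.09) and Ppara (-0.95 ± 0.14) had values near those in normoxia. Fstl1 (0.09 ± 0.15), Adamts15 (0.08 ± 0.19), Maff (0.14 ± 0.23), Mlx (-0.05 ± 0.08) and Atg4d (-0.13 ± 0.08) were not called in hypoxia, and for none of them was the difference between the effects called. That difference, tested as an interaction, was called for 2 genes (0.0101% of those tested), against 2292 at an unadjusted p under 0.05 and 108 called with DESeq2. One was Slco1c1, the gene whose promoter drives Cre. It measured 838, 654, 608 and 690 CPM in normoxic controls and 476, 194, 426 and 456 CPM in normoxic knockouts, and fell by 0.85 ± 0.23 on the log2 scale (adjusted p = 0.023), a call lost in normoxic libraries alone (-0.85), without control 1 (-0.75) and without controls 3 and 4 (-0.94). In hypoxia it was 94.1 to 127 CPM in controls and 256 to 491 CPM in knockouts, a rise of 1.98 ± 0.22. The other was Pde3a, a phosphodiesterase, which measured 30 to 48.3 CPM in normoxic controls and 9.45 to 29.1 CPM in normoxic knockouts and was not called (-0.77 ± 0.37, adjusted p = 0.182). In hypoxia it measured 1.27 to 2.35 CPM in controls and 19.4 to 56.5 CPM in knockouts. The share of a transgene built from the Slco1c1 locus in the counts of Slco1c1, or of Pde3a, was not tested.

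**Figure D5:**
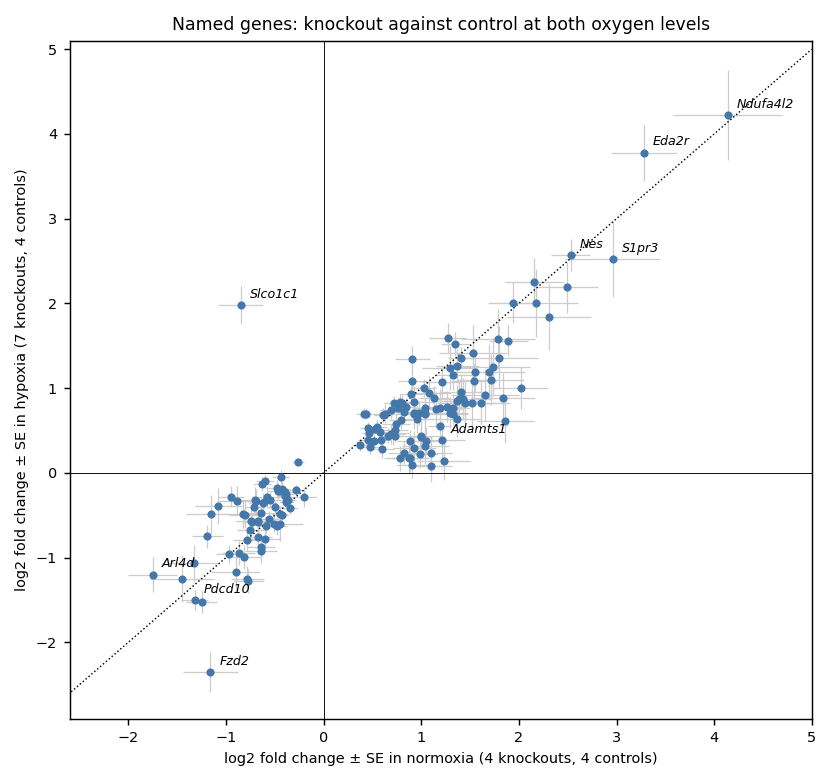
Log2 fold change of the named genes in normoxia (horizontal axis, 4 knockouts and 4 controls) against hypoxia (vertical axis, 7 knockouts and 4 controls), each with its SE; the dotted line marks equal values, and the comparisons share no library. Most points lie in the quadrants of equal sign, and Slco1c1 (-0.85 in normoxia, 1.98 in hypoxia) stands apart.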

How the data were processed

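Polyadenylated mouse brain RNA was sequenced. The gene counts deposited by the authors are whole numbers. HISAT2, edgeR and the build GRCm39 are named, per the submitters' processing notes, with no tool versions. The counter and its use of strand are not given in the sources used here, so overlapping and antisense genes, and close copies, are uncertain. The authors also deposited RPKM values, which were not tested. Between 62.5 and 67.5% of counts from 2 to 21 were even in each library, so precision is below what the totals imply.

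After filterByExpr and TMM scaling, edgeR 4.0.16 (R 4.3.3) was run with its robust quasi-likelihood test, in 1 fit of 19 libraries with 4 group terms; p-values were adjusted over all 19854 genes. Control hypoxia 1 and 2 were not analysed here. Nothing in the labels ties libraries to separate mice; the p-values reflect only how these libraries vary, which may be technical. Same-numbered knockouts and controls correlated at 0.12, 0.05, -0.11 and 0.24 in their deviations from group means, so the numbers were not taken as pairs. On simulated counts of 19563 genes, 167 of 200 genes changed 2-fold in this comparison were recovered (83.5%) with 9 false calls. These counts were drawn independently with the fitted spread of each gene and, apart from the 200, the same mean level in every group. They held none of the cell type, Y-linked or between-knockout differences described above. The false calls therefore give no error rate for the calls in the real data.

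The members and the 103 families and 13 marker lists were chosen with earlier results of these data known. Named genes were, among calls whose mean log2 CPM reached 1, predicted gene models aside, the 12 with the smallest adjusted p and the 10 with the largest CPM difference in each direction, and up to 3 per family and direction by p, plus Pdcd10, Slco1c1, Aldh1l1, Rpl10a and Gfap; the text gives a selection of them, and some are not reported here. List levels by library are means of log2(CPM + 0.5). The alternatives were RLE scaling, no filter or at least 1 CPM in 4 libraries, DESeq2 1.42.0, limma 3.58.1 voom with sample weights, normoxia libraries only, this with a replicate block, Y-linked RNA (summed CPM above 20) as a covariate, without knockout hypoxia 1 to 3, and without each normoxic library. Leaving out controls 3 and 4 together was added after seeing the data.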

Additional observations from a re-analysis of the deposited data

Results flagged for a closer look

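Of 356 groups of 4 libraries examined over the named genes and marker sums, 14 had 1 library whose gap to the nearest other exceeded Dixon's critical value, where chance gives about 1 in 20. Among knockouts, replicate 3 stood apart for Gfap (1.37e+04 CPM against 1.06e+04 to 1.09e+04), S1pr3 (73.9 against 11.3 to 16.8), Angpt1 (28.2 against 16.4 to 17.6) and Pdk1 (72 against 58.2 to 58.7), and replicate 2 for Vgll4 (91.6 against 68.2 to 70.5). Each of these knockout values lay on the same side of the controls as those of the other knockouts. Among controls, replicate 1 stood apart for Hist1h4h (2.08), Cacna2d4 (3.45) and Ddit3 (12.2), replicate 2 for Per1 (378) and Errfi1 (42.3), replicate 4 for Slc4a3 (38.5), Adamts15 (3.04) and Tead2 (26.4), and replicate 3 for the summed lymphocyte markers (6.61 CPM).

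The knockout effect in hypoxia minus that in normoxia was called for Slco1c1 (2.83 on the log2 scale) and for Pde3a (4.71).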

How the results depend on the processing

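Of 2970 values of the 165 named genes under 18 alternatives, none changed sign, 2891 stayed on their side of the threshold and 79 were no longer called. Most of these came without controls 3 and 4, which leaves 2 controls. The named genes were picked mainly among the calls in these same libraries, so their stability was largely given by that choice. The count of 2415 calls (1369 higher, 1046 lower) was 1422 (801 and 621) with Y-linked RNA as a covariate and 466 (290 and 176) without controls 3 and 4. With 1 library left out it ranged from 1122 to 3149, with 644 to 1783 higher and 478 to 1366 lower; it was 1370 without knockout 1, 1122 without knockout 3, and 1357, 1490, 1183 and 1552 without controls 1 to 4. Without a filter 680 genes were called lower. With the replicate block, in normoxia libraries only, 1700 genes were called (1011 higher, 689 lower), and Slc25a39, Atp8a1, Col4a1, C1qb, Cebpg, Socs3 and Lif were no longer called. The interaction count of 2 was 108 with DESeq2. The cause was not tested. The count was higher with DESeq2 (3346), limma-voom (3011) and without knockout hypoxia 1 to 3 (3481), and it was 2390 with RLE scaling, 2073 in normoxia libraries only and 1640 without a filter.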

Other observations

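Families picked after their values were seen moved together. Of 373 tested zinc finger genes named Zfp, 86 were called lower and 4 higher (median log2 fold change -0.2), against 5.27% and 6.9% of all genes tested. Many such genes encode DNA-binding repressors. The count called lower was 39 without knockout 3, 49 with Y-linked RNA as a covariate, 77 with RLE scaling and 10 without controls 3 and 4, and in hypoxia 42 were called lower and 9 higher. Their mean log2 CPM, relative to the controls, was -0.1, -0.12, -0.21 and -0.26 in knockouts 1 to 4. Of 41 histone genes named Hist, 12 were called higher and 1 lower (median 0.65), and 19 and 1 in hypoxia. Most histone transcripts lack a poly(A) tail, and close copies may share reads, so their levels in these libraries are uncertain.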
